A study of Mus musculus with 4 samples.

Results

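The genes described here are 37 genes of DNA replication and of the G1/S step of the cell cycle, chosen by name and read from the gene count tables of 4 bulk RNA-seq libraries. They and the further gene lists below were chosen with earlier results of these data known. All 37 were listed in every table, among 14082 listed genes, and all 37 passed the filter on low counts that left 13358 genes for testing. The sorted cells were ovalbumin-specific CD8 T cells from subcutaneous tumours of E.G7, a mouse T lymphoma line that expresses ovalbumin. In the group labelled KO (n = 2 libraries) the tumour-bearing mice carried Cd8-cre and a floxed Smad4 gene, and in the group labelled WT (n = 2 libraries) they carried the floxed Smad4 gene without the Cre. All mice were 6 to 10 weeks old when E.G7 cells were injected. The Cre driver is given only as Cd8-cre. The labels name no separate animals for the libraries of a group, so every p-value rests on a spread between samples that may be technical.

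DNA replication begins when the origin recognition complex, CDC6 and CDT1 load the MCM2-7 helicase onto origins in G1. At the G1/S step, cyclin E kinases and E2F transcription factors switch on the genes of the replication machinery, and CDC45 and GINS turn the loaded helicase into an active one. Polymerases, the sliding clamp PCNA, its loader and a supply of deoxynucleotides then copy the genome, and chromatin assembly factors put histones on the new strands. CD8 T cells that meet their antigen divide rapidly and express these genes at high levels, and so do tumour lines and other dividing cells.

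Smad4 itself was not lower in the libraries labelled KO. It had 29.3 and 40.3 CPM (read counts scaled to library size with TMM factors) in the libraries labelled KO, against 31.7 and 29.4 CPM in those labelled WT, and the groups overlapped (log2 fold change 0.19, edgeR adjusted p = 0.397). The log2 fold change was -0.063 when KO replicate 2 was left out and 0.40 when KO replicate 1 was (edgeR adjusted p = 0.784 and 0.00806). A gene-level count includes exons that Cre leaves in place. It also includes RNA of other cell types, whose markers are given below. The count therefore does not show whether the floxed part was lost, and every direction below is between libraries labelled KO and WT. Summed counts ranged from 25806382 to 26218277 in the libraries labelled KO and from 24366540 to 25790107 in those labelled WT.

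Replication and G1/S genes were mostly higher in the libraries labelled KO, by small amounts. A gene was called at a Benjamini-Hochberg adjusted p under 0.05 over all tested genes (edgeR quasi-likelihood). By that rule 18 of the 37 genes rose, which is 48.6%, against 10.1% of all tested genes. Only Tk1 and Rpa2 fell, which is 5.41% of the list against 11.0% of all tested genes, and 17 were not called, so that 20 of 37 were called either way, against 21.2% of all tested genes. Among the 10040 tested genes with a mean of at least 5 CPM, which every gene of the list has, 11.9% were higher and 13.4% lower. The fold change was positive for 31 of the 37 genes, against 49.6% of all tested genes. The log2 fold changes (KO over WT) ran from -0.58 for Tk1 to 0.76 for Cdc6, with a median of 0.23 beside a median of -0.0037 over all tested genes. Together the 37 genes summed to 4063 and 4040 CPM in the libraries labelled KO, against 3406 and 3409 CPM in those labelled WT, or 1.19-fold. Both libraries labelled KO lay above both labelled WT for 27 of the 37 genes, a pattern seen in 29.7% of tested genes, and below them for 3, a pattern seen in 30.0%. With WT replicate 1 or WT replicate 2 left out, fewer of the 37 genes were called higher, and fewer of all tested genes were as well. The median log2 fold change of the 37 genes was 0.26 in both cases. With a library left out, a single library stands for its group and the spread comes from the other group alone. Calls kept or lost in such fits are therefore only a loose guide. Without KO replicate 1 the rises of Mcm6, Pola2 and Lig1 were lost and Tyms and Chaf1a were called higher, and without KO replicate 2 those of Cdt1, Mcm5 and Mcm6 were lost and Rfc3 and Chaf1b were called higher, 17 in all each time. No gene of the list passed a test against a change of 1.5-fold (edgeR glmTreat, 0 higher and 0 lower, against 148 and 211 of all genes). Of the 37 genes, 13 share exon bases with another annotated gene, from 0.699% for Pole to 84.2% for Fen1, and the counting rule for such reads is not stated. The plot of CPM by library shows how narrow most of the gaps between the groups were.

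**Figure D1:**
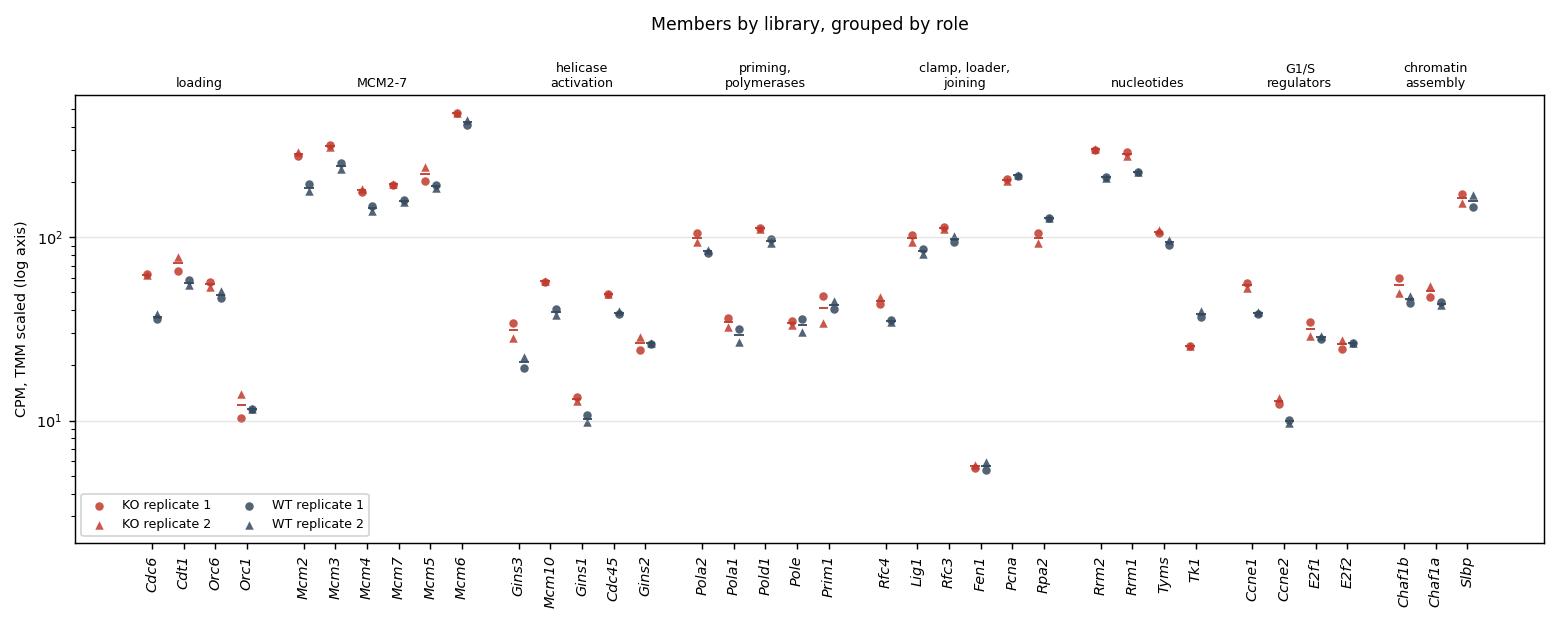
CPM (TMM scaled, logarithmic axis) of the 37 genes in each of the 4 libraries, grouped by role, with the libraries labelled KO in red left of those labelled WT in dark blue and short lines at the mean of each group. The MCM2-7 genes and Rrm2 lie near the top and above their WT values, Tk1 and Rpa2 lie below theirs, and Fen1 is the lowest of all.

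These libraries were not pure T cells, and markers of several cell types moved along with the replication genes. The counts of called markers below stand beside 10.1% higher and 11.0% lower over all tested genes. Of 9 tested cytotoxic T cell markers 8 were lower, and the sum of all 9 was 2156 to 2165 CPM in the libraries labelled KO against 4662 to 4748 CPM in those labelled WT. Their log2 fold changes ran from -2.21 for the effector gene Prf1 to -0.14 for the CD3 chain Cd3d, which was not called. The sum therefore does not measure a share of T cells. Cd8a, a chain of the CD8 co-receptor, had 239 and 248 CPM in the libraries labelled KO against 472 and 455 CPM in those labelled WT. Of 15 neutrophil markers 9 were higher, with a sum of 2030 to 2035 CPM in the libraries labelled KO against 713 to 732 CPM in those labelled WT. Markers of monocytes and macrophages were abundant in all libraries (20297 to 20867 CPM against 19666 to 20459 CPM), with 2 of 12 higher and 2 lower. Dendritic cell markers (329 to 341 against 221 to 222 CPM, 2 of 7 higher and 1 lower) and red cell and platelet markers (927 to 953 against 760 to 765 CPM, 6 of 8 higher) were higher in sum. Siglech, with 168 and 174 CPM against 67.1 and 64.9 CPM, made most of the dendritic difference. Both libraries labelled KO lay above both labelled WT for 2 of the 7 dendritic markers and below them for 2. B cell markers summed to 13.8 to 16.1 CPM in the libraries labelled KO against 6.64 to 6.88 CPM in those labelled WT, with 2 of 4 tested higher. Fibroblast, endothelial and epithelial markers summed to 661 to 728 CPM against 575 to 624 CPM, with 3 of 11 higher and 1 lower. No marker reported here was at 0 in all 4 libraries, and Trac was not listed. Mitochondrially encoded genes took 6.57% and 6.99% of counts in the libraries labelled KO, against 10.4% and 10.2% in those labelled WT. Every cell type that divides expresses replication genes, E.G7 cells included, for which no separate marker was used here. Whether E.G7 cells, a T lymphoma line, contributed to the T cell markers was not tested. The part of these shifts in the replication genes was not tested, and in bulk RNA fewer cells of a type and less RNA per cell cannot be told apart.

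Promoters were compared for the exact letters of E2F-type, CCAAT and cell cycle homology motifs, because E2F factors are the classical regulators of these genes. RefSeq promoter windows of GRCm38.p6, from 250 bases before to 50 bases after an annotated start, were found for 32 of the 37 genes. Ccne2, Gins1, Gins2, Mcm4 and Pole had no entry. An E2F-type motif (TTTGGCGC or TTTCCCGC, either strand) was in the window of 11 of the 32 genes (34.4%). It was in 3.28% of 10632 tested genes and 1.80% of 27025 genes with a window. Both of these gene sets leave out a chromosome that holds none of the 37 genes. CCAAT, again on either strand, was in 20 of 32 (62.5%), against 42.8% of tested genes and 41.1% of the 27025 genes. The cell cycle homology letters (TTTGAA, or TTTAAA, which reads the same on both strands) were in 9 of 32 (28.1%). That share lay above the 23.4% of tested genes and below the 30.6% of the 27025 genes. No window of the list had an E2F-type and a CCAAT match that shared bases. Of the 11 genes with an E2F-type match, Cdc6, Cdt1, Gins3, Mcm3, Mcm5, Mcm6, Mcm7 and Pold1 rose and E2f2, Pola1 and Rfc3 were not called. Their median log2 fold change was 0.23, and that of the 21 genes without a match, of which 9 rose and 2 fell, was 0.22. A match is a description of letters and does not show a bound site.

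Windows of the 3 steepest rises (Cdc6, Mcm2 and Gins3), of the smallest called rise (Mcm6) and of the only falls (Tk1 and Rpa2) are printed 5′ to 3′ on the strand of the gene. Capitals mark E2F-type letters (TTTGGCGC, or TTTCCCGC read on the other strand as GCGGGAAA) and CCAAT (on the other strand ATTGG). They lie at chr11:98907901-98908200 (plus strand), chr6:88898731-88899030 (minus), chr8:95633309-95633608 (plus), chr1:128359656-128359955 (minus), chr11:117825965-117826264 (minus) and chr4:132768110-132768409 (plus) of GRCm38.p6.
Cdc6: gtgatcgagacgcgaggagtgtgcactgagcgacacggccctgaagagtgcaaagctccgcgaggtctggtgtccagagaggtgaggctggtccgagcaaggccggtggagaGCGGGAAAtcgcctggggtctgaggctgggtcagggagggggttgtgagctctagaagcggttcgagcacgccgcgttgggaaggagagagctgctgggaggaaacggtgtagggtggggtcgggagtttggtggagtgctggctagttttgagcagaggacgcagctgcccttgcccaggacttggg
Mcm2: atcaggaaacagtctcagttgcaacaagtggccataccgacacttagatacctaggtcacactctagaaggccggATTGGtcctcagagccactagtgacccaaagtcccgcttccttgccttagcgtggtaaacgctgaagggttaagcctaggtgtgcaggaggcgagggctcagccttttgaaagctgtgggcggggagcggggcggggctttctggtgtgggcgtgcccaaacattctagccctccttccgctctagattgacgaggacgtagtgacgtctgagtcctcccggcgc
Gins3: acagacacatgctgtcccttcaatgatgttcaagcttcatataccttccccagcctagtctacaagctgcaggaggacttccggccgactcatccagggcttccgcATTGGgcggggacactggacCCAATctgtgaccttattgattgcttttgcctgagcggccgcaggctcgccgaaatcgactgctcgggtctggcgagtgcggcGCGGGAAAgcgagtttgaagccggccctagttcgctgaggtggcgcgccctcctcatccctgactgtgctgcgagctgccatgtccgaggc
Mcm6: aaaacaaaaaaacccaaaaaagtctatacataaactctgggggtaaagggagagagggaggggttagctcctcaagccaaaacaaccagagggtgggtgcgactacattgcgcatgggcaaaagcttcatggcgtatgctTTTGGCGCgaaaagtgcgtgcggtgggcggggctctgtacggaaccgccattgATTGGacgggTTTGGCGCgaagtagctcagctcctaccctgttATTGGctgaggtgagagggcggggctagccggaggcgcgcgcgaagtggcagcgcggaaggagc
Tk1: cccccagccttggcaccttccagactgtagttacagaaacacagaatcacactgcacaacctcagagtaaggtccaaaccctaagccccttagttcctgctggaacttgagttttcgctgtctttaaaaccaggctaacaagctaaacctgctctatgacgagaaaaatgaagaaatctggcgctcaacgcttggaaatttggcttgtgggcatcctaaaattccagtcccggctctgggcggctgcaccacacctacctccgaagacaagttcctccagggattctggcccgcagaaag
Rpa2: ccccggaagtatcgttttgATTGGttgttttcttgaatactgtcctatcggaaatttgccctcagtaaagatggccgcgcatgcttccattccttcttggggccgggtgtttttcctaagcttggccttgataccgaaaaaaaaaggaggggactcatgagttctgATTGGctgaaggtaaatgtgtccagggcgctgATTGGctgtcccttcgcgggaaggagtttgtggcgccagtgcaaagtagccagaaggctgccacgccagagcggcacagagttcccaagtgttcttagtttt
In Mcm6 the E2F-type letters occurred at 110 and at 47 bases before the RefSeq start, in Gins3 at 41 bases before it and in Cdc6 at 138 bases before it. The GENCODE M21 annotation can place the start elsewhere. The M21 start of Cdc6 (98907801) lies upstream of its whole window. That of Gins3 (95633453) lies inside its window, upstream of the E2F-type letters, so these letters are downstream of the M21 start in both genes. The Mcm2 window held CCAAT at 175 bases before the RefSeq start and no exact E2F-type match, the Rpa2 window held CCAAT 3 times, and the Tk1 window held neither.

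Genes that recognise origins and load the helicase were led by Cdc6, the steepest rise of the list. Cdc6, the ATPase that joins the origin recognition complex to recruit the helicase, had 63.0 and 62.1 CPM in the libraries labelled KO, against 35.7 and 38 CPM in those labelled WT. That is 1.70-fold, a log2 fold change of 0.76 ± 0.089 (SE) with an edgeR adjusted p of 6.07e-05, and the groups were far apart. Its position is chromosome 11, 98907801 to 98923940, plus strand (mm10, GENCODE M21). Cdt1, the partner that escorts MCM2-7 to origins, had 65.7 and 78.2 CPM in the libraries labelled KO, against 58.5 and 54.7 CPM in those labelled WT. Its log2 fold change was 0.35 ± 0.095 (SE, edgeR adjusted p = 0.0206), and KO replicate 1 lay nearer to the WT values than to KO replicate 2. The Cdt1 call was lost without KO replicate 2 (edgeR adjusted p = 0.112) and without WT replicate 2 (0.108). Of the origin recognition complex subunits, Orc6 had a log2 fold change of 0.19 (edgeR adjusted p = 0.166). Orc1, the largest of them, had 10.3 and 14.0 CPM in the libraries labelled KO, against 11.5 and 11.6 CPM in those labelled WT. Its groups overlapped, with a log2 fold change of 0.075 and a 95% confidence interval of -0.33 to 0.48, and the libraries labelled KO differed from each other more than the group means did.

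All 6 subunits of the MCM2-7 helicase rose, each with both libraries labelled KO above both labelled WT. Mcm2 rose most, with 277 and 291 CPM in the libraries labelled KO, against 194 and 179 CPM in those labelled WT. This is 1.52-fold, a log2 fold change of 0.61 ± 0.061 (SE, edgeR adjusted p = 1.65e-05), and the gap was several times the spread within either group. Mcm3 had 318 and 311 CPM in the libraries labelled KO, against 255 and 234 CPM in those labelled WT (log2 fold change 0.36, edgeR adjusted p = 0.000872). Mcm4 had 177 and 183 CPM in the libraries labelled KO, against 148 and 139 CPM in those labelled WT (log2 fold change 0.32, edgeR adjusted p = 0.00235). Mcm7 had 194 and 195 CPM in the libraries labelled KO, against 159 and 156 CPM in those labelled WT (log2 fold change 0.30, edgeR adjusted p = 0.00245). These calls held with each library left out in turn, as the plot of fold changes with libraries left out shows, though each such fit has a single library in its group. Mcm7 shares 12.6% of its exon bases with other annotated genes, among them Ap4m1 and Cops6 on the opposite strand, and its value is uncertain to that extent.

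The rises of Mcm5 and Mcm6 were the least secure of the complex. Mcm5 had 202 and 242 CPM in the libraries labelled KO, against 193 and 185 CPM in those labelled WT, a log2 fold change of 0.23 ± 0.076 (SE, edgeR adjusted p = 0.0497). KO replicate 2 carried most of that difference, and leaving it out gave a log2 fold change of 0.094 (edgeR adjusted p = 0.395). The Mcm5 call was also lost without WT replicate 1 (edgeR adjusted p = 0.101), without WT replicate 2 (0.189), with no filter on low counts (0.0562) and with limma-voom (0.0630). Mcm6 had 478 and 475 CPM in the libraries labelled KO, against 412 and 434 CPM in those labelled WT, a log2 fold change of 0.17 ± 0.053 (SE, edgeR adjusted p = 0.0366). The groups did not overlap, but the call was lost whichever library was left out (edgeR adjusted p from 0.0621 to 0.312) and with the replicate number as a block (0.126).

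**Figure D2:**
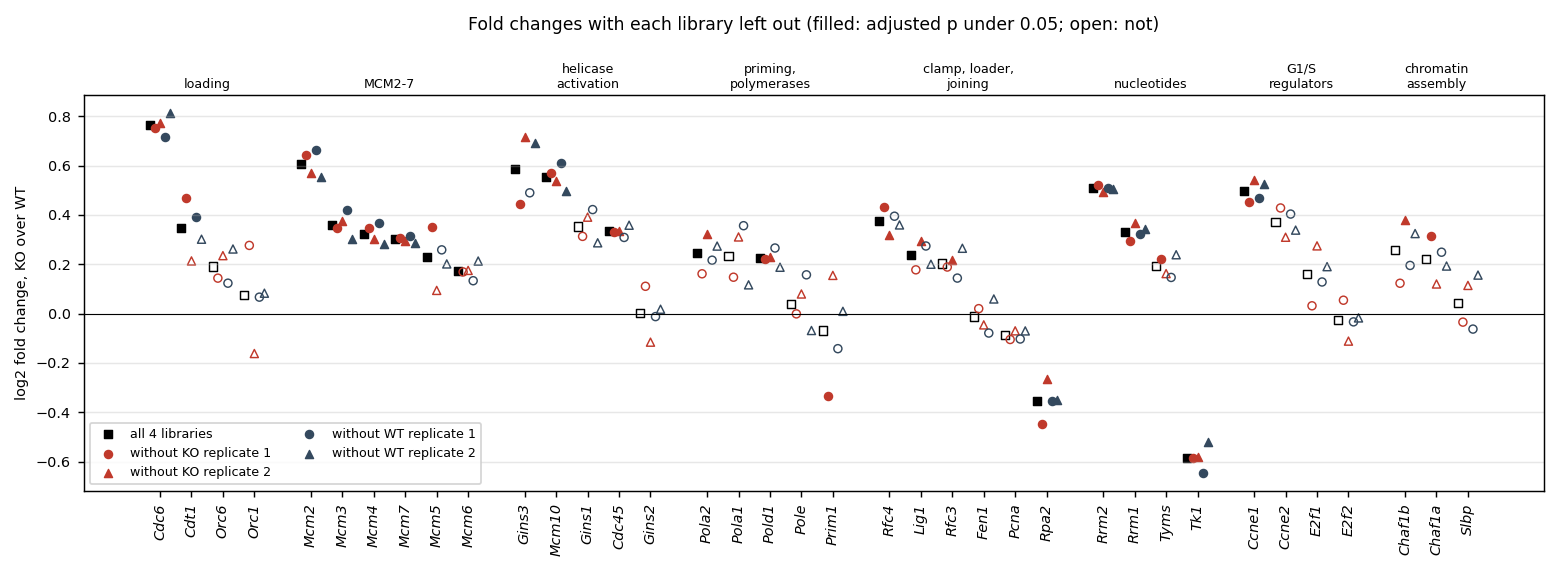
Log2 fold change (KO over WT) of each gene with all 4 libraries (black squares) and with 1 library left out (red for a KO and dark blue for a WT library, circles for replicate 1 and triangles for replicate 2), filled where the edgeR adjusted p was under 0.05. Cdc6, Mcm2, Mcm3, Mcm4, Mcm7, Mcm10, Rrm1, Rrm2 and Ccne1 stay filled above 0 and Rpa2 and Tk1 stay filled below 0.

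Compared per exon length, the subunits of the helicase had unequal RNA levels, although they are built into the complex in equal numbers. The authors' FPKM are fragments scaled to library size and to the length of all annotated exons of a gene together. That length can exceed the length of a single transcript. On this scale Mcm6 was the highest of the 6 at 98.9 ± 0.542 FPKM in the libraries labelled KO and 87.2 ± 3.35 FPKM in those labelled WT (SD, n = 2 each). Mcm2 was the lowest at 39.6 ± 1.31 FPKM in the libraries labelled KO and 25.8 ± 1.45 FPKM in those labelled WT. Its exon length is the longest of the 6, at 6956 bases, against 3589 for Mcm4 and 4426 for Mcm7. In CPM, Mcm2 lay above Mcm4 and Mcm7 in every library, so its low place in FPKM rests on that length. The ratio of Mcm6 to Mcm2 FPKM was 2.57 and 2.43 in the libraries labelled KO, against 3.16 and 3.61 in those labelled WT. In FPKM, the subunit with the lowest level thus had the largest called rise, and the one with the highest level the smallest. The order did not hold between them. Mcm3, next below Mcm6 in level at a mean of 72.0 FPKM, had the largest rise after Mcm2 (log2 fold change 0.36). Across all 37 genes fold change and level were only weakly related, with a Spearman rho of 0.15 over genes that share the same 4 libraries and are not independent replicates.

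**Figure D3:**
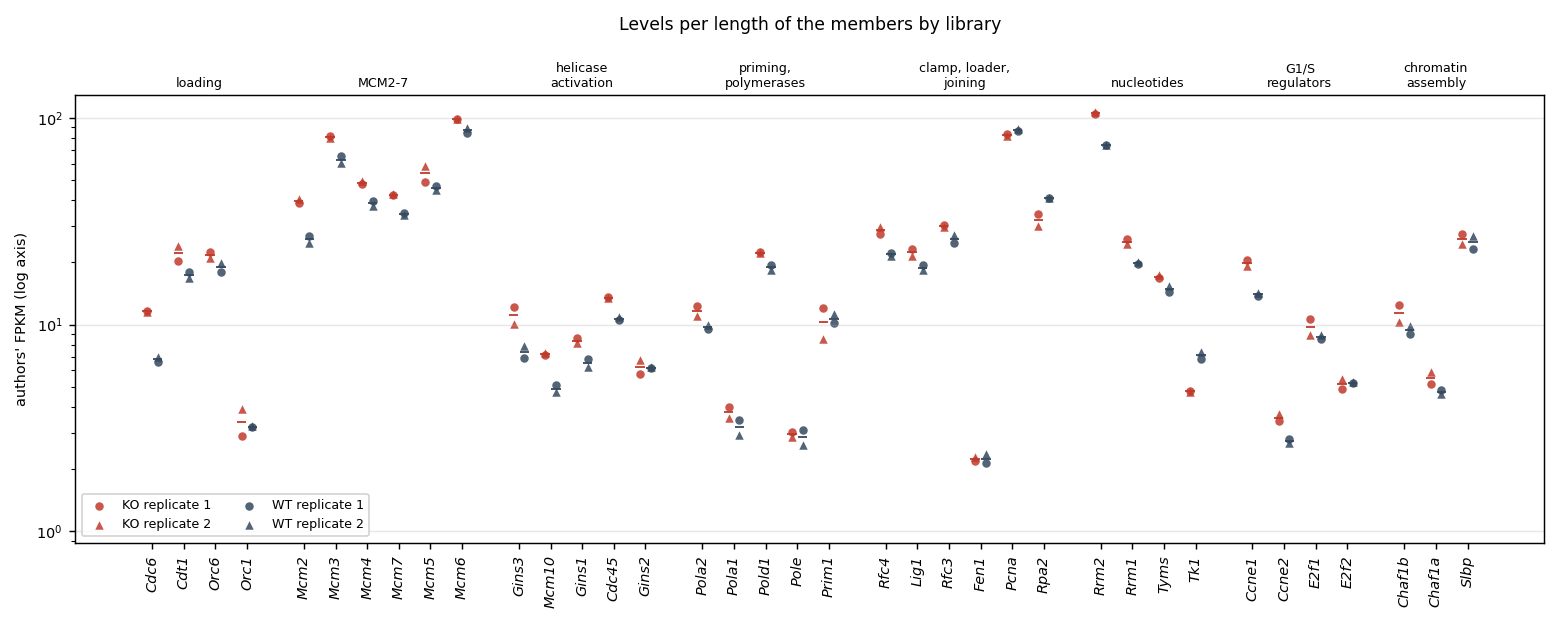
The authors' FPKM (logarithmic axis) of the 37 genes in each library, with the libraries labelled KO in red left of those labelled WT in dark blue, grouped by role, with short lines at group means. Mcm6, Rrm2 and Pcna have the highest mean levels per length and Fen1 the lowest.

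Genes that turn the loaded helicase into an active one rose in 3 of 5 cases. Mcm10, which helps to activate the helicase at origins, had 56.8 and 58.1 CPM in the libraries labelled KO, against 40.7 and 37.5 CPM in those labelled WT. It rose 1.47-fold (log2 fold change 0.55 ± 0.091 SE, edgeR adjusted p = 0.000913), with the groups well apart. Gins3, a subunit of the GINS complex, had 34.2 and 28.2 CPM in the libraries labelled KO, against 19.3 and 22.2 CPM in those labelled WT. It rose 1.5-fold (edgeR adjusted p = 0.00729), a call lost without WT replicate 1 (0.0808), and the libraries of each group differed visibly. Cdc45, which binds MCM2-7 and GINS in the active helicase, had 49.0 and 48.7 CPM in the libraries labelled KO, against 38.2 and 39.4 CPM in those labelled WT. Its log2 fold change was 0.33 (edgeR adjusted p = 0.0212), and the call was lost without WT replicate 1 (0.154) or WT replicate 2 (0.0830) although the groups did not overlap.

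The other GINS subunits were not called. Gins1 had a log2 fold change of 0.35 and a wide 95% confidence interval (-0.011 to 0.72), on 244 to 358 reads per library. Gins2 had 24.4 and 28.5 CPM in the libraries labelled KO, against 26.2 and 26.6 CPM in those labelled WT, and its log2 fold change was 0.0027 (95% confidence interval -0.26 to 0.27). The WT values of Gins2 lay between the KO values, and 67.3% of its exon bases are shared with Gse1 on the opposite strand, so its counts are uncertain. The ratio of Gins3 to Gins2 FPKM was 2.12 and 1.5 in the libraries labelled KO, against 1.12 and 1.26 in those labelled WT.

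Of the genes for priming and polymerases, 2 of 5 rose, both by about as much as the median of the list. Pola2, the regulatory subunit of the polymerase alpha and primase complex, had 105 and 94.0 CPM in the libraries labelled KO, against 82.6 and 85.5 CPM in those labelled WT (log2 fold change 0.24, edgeR adjusted p = 0.0367). Pold1, the catalytic subunit of polymerase delta, had 112 and 112 CPM in the libraries labelled KO, against 98.3 and 92.8 CPM in those labelled WT (log2 fold change 0.23, edgeR adjusted p = 0.0300). Neither pair of groups overlapped, but both calls were lost without WT replicate 1 (edgeR adjusted p = 0.209 for Pola2 and 0.0789 for Pold1) and without WT replicate 2 (0.0803 and 0.230), and that of Pola2 also without KO replicate 1 (0.196). Pola1, the catalytic subunit of polymerase alpha, had a log2 fold change of 0.23 (edgeR adjusted p = 0.205). Prim1, the primase that starts each fragment, had a log2 fold change of -0.069 with all libraries, and the libraries labelled KO differed widely, at 47.8 and 34 CPM, against 40.7 and 45.1 CPM in those labelled WT. It was called lower when KO replicate 1 was left out (log2 fold change -0.33, edgeR adjusted p = 0.0253) and had a log2 fold change of 0.15 when KO replicate 2 was (0.335). Pole, the catalytic subunit of the leading-strand polymerase, had 34.9 and 33.0 CPM in the libraries labelled KO, against 35.7 and 30.4 CPM in those labelled WT. The WT values of Pole enclosed the KO values, and its log2 fold change was 0.040 (95% confidence interval -0.21 to 0.29).

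The clamp, its loader and the genes that join Okazaki fragments moved in both directions, with 2 of 6 higher and 1 lower. Their summed level was 578 and 554 CPM in the libraries labelled KO, against 563 and 569.5 CPM in those labelled WT. Rfc4, a subunit of the clamp loader, had 43.4 and 47.0 CPM in the libraries labelled KO, against 35.3 and 34.3 CPM in those labelled WT (log2 fold change 0.38, edgeR adjusted p = 0.0160). That call was lost without WT replicate 1 (edgeR adjusted p = 0.0782) or WT replicate 2 (0.101), and 12.7% of Rfc4 exon bases are shared with Eif4a2 on the opposite strand. Lig1, the ligase that seals Okazaki fragments, had 103 and 94.6 CPM in the libraries labelled KO, against 86.0 and 81.3 CPM in those labelled WT (log2 fold change 0.24, edgeR adjusted p = 0.0372). The groups did not overlap, but the Lig1 call was lost without KO replicate 1 (edgeR adjusted p = 0.145), WT replicate 1 (0.0887) or WT replicate 2 (0.224) and with DESeq2 (0.0525). Rfc3, another loader subunit, missed the threshold with a log2 fold change of 0.20 (edgeR adjusted p = 0.0537) and passed it without KO replicate 2 (0.0475), with upper quartile scaling (0.0447), with library totals alone (0.00863) and with a filter of at least 1 CPM (0.0488).

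Rpa2 and Pcna did not share the rise of the helicase genes. Rpa2, a subunit of the protein that coats single-stranded DNA, had 106 and 93.0 CPM in the libraries labelled KO, against 127 and 127 CPM in those labelled WT. It fell 1.28-fold (log2 fold change -0.35 ± 0.073 SE, edgeR adjusted p = 0.00434), both libraries labelled KO lay below both labelled WT, and the call held with each library left out. Pcna, the sliding clamp and among the most abundant RNAs of the list at 82.7 ± 1.62 FPKM in the libraries labelled KO and 87.3 ± 1.34 FPKM in those labelled WT (SD, n = 2 each), was not called. Its log2 fold change was -0.087 (95% confidence interval -0.21 to 0.033), and the upper end of that interval lies under the log2 fold change of every MCM2-7 subunit. Fen1, the nuclease that trims Okazaki fragments, had 5.49 and 5.74 CPM in the libraries labelled KO, against 5.40 and 5.92 CPM in those labelled WT, and a log2 fold change of -0.012 (95% confidence interval -0.52 to 0.49). The WT values of Fen1 enclosed the KO values, at only 128 to 155 reads per library, and 84.2% of its exon bases are shared with other annotated genes. The low level of Fen1 is uncertain for that reason.

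Deoxynucleotide supply held both strong rises and the deepest fall of the list. Rrm2, the subunit of ribonucleotide reductase that is made in S phase, had 298 and 304 CPM in the libraries labelled KO, against 213 and 211 CPM in those labelled WT. It rose 1.42-fold (log2 fold change 0.51 ± 0.054 SE, edgeR adjusted p = 2.83e-05), and the replicates of each group lay close together. Rrm1, the large subunit of the same enzyme, had 293 and 279 CPM in the libraries labelled KO, against 226 and 228 CPM in those labelled WT (log2 fold change 0.33, edgeR adjusted p = 0.00106). Per exon length, the ratio of Rrm2 to Rrm1 FPKM was 4.04 and 4.34 in the libraries labelled KO, against 3.74 and 3.68 in those labelled WT. The annotated exon lengths behind these FPKM are 2771 bases for Rrm2 and 11012 bases for Rrm1, and the CPM of both genes were similar. The size of the ratio therefore rests on these lengths, while its shift between the groups does not. Tk1, the salvage enzyme that phosphorylates thymidine in dividing cells, had 25.6 and 25.5 CPM in the libraries labelled KO, against 36.7 and 39.9 CPM in those labelled WT. It fell 1.5-fold (log2 fold change -0.58 ± 0.11 SE, edgeR adjusted p = 0.00208), the groups did not overlap, and the call held with each library left out (edgeR adjusted p up to 0.0283). Tyms, which makes thymidylate by the other route, had 105 and 109.5 CPM in the libraries labelled KO, against 91.3 and 96.9 CPM in those labelled WT. The groups did not overlap, yet Tyms missed the threshold (log2 fold change 0.19, edgeR adjusted p = 0.0667) and among the alternatives tested at 0.05 passed it only with library totals alone (0.0106) and when KO replicate 1 was left out (0.0465). Positions are chromosome 12, 24708241 to 24714146, plus strand, for Rrm2 and chromosome 11, 117815526 to 117826092, minus strand, for Tk1 (mm10, GENCODE M21).

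Among the regulators of the G1/S step only Ccne1 was called. Ccne1, cyclin E1, had 56.3 and 52.9 CPM in the libraries labelled KO, against 38 and 39.3 CPM in those labelled WT. It rose 1.41-fold (log2 fold change 0.50 ± 0.091 SE, edgeR adjusted p = 0.00203), the groups lay well apart, and the call held with each library left out. Ccne2, cyclin E2, is the lower of the pair per length, at 3.54 ± 0.197 FPKM in the libraries labelled KO and 2.72 ± 0.0889 FPKM in those labelled WT (SD, n = 2 each). Its log2 fold change was 0.37, as large as several called ones, but its interval was wide (95% confidence interval 0.0036 to 0.74, edgeR adjusted p = 0.149), and 17.4% of its exon bases are shared with Ints8. E2f1, an activating E2F factor, had a log2 fold change of 0.16 (edgeR adjusted p = 0.392). E2f2, another activator, had 24.6 and 27.5 CPM in the libraries labelled KO, against 26.4 and 26.6 CPM in those labelled WT, with a log2 fold change of -0.026 (95% confidence interval -0.28 to 0.23). The WT values of E2f2 lay between the KO values.

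None of the 3 genes for histone supply and chromatin assembly was called by edgeR, DESeq2 or limma-voom (0 higher and 0 lower each), although 2 were higher at an unadjusted p under 0.05 in edgeR. Those were Chaf1a and Chaf1b, subunits of chromatin assembly factor 1, with log2 fold changes of 0.22 and 0.26 (edgeR adjusted p = 0.135 and 0.10). Chaf1b was called higher without KO replicate 2 (edgeR adjusted p = 0.00270) and Chaf1a without KO replicate 1 (0.0214), and 52.5% of Chaf1a exon bases are shared with Ubxn6 on the opposite strand. Slbp, which binds the stem-loop of histone mRNAs, had 171 and 154 CPM in the libraries labelled KO, against 147 and 169.8 CPM in those labelled WT. Its groups overlapped (log2 fold change 0.042, 95% confidence interval -0.13 to 0.21). Histone genes of the replication-dependent clusters, a list taken from the listed symbols after they were seen, summed to 207 and 247 CPM in the libraries labelled KO, against 245 and 229 CPM in those labelled WT. Of 34 tested histone genes 0 were called by edgeR, DESeq2 or limma-voom, and at an unadjusted p under 0.05 (edgeR) 0 were higher and 2 lower. Their sequences are near-identical and many lack a poly(A) tail, so their counts are uncertain.

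**Figure D4:**
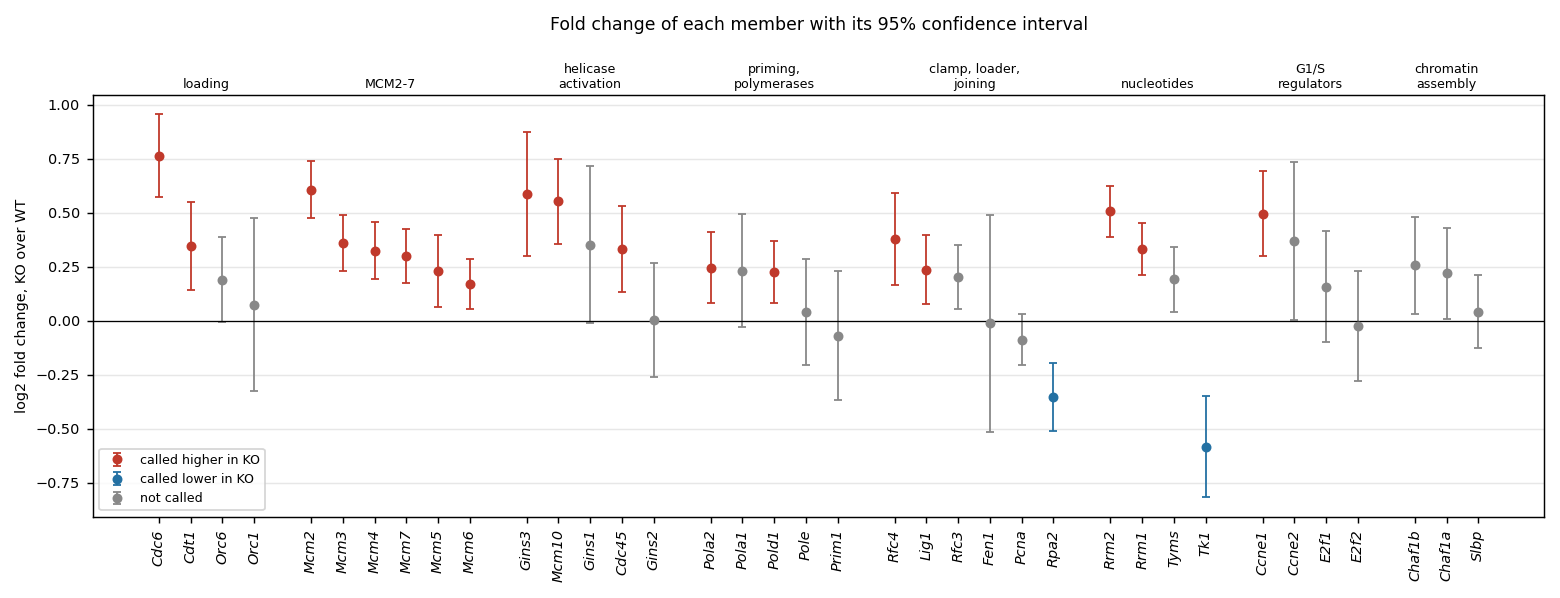
Log2 fold change (KO over WT) of each of the 37 genes with its 95% confidence interval, grouped by role and ordered by fold change within a role, in red where called higher, blue where called lower and grey where not called. The 6 helicase subunits all lie above 0, Tk1 and Rpa2 lie below it, and Orc1, Fen1 and Ccne2 have the widest intervals.

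Of 42 further replication factors 11 rose (26.2%, against 10.1% of all tested genes) and 1 fell (2.38%, against 11.0%). Their median log2 fold change was 0.15, and without WT replicate 1 only 3 rose. Uhrf1, which links replication to maintenance of DNA methylation, had 159.5 and 170.1 CPM in the libraries labelled KO, against 122 and 131 CPM in those labelled WT (edgeR adjusted p = 0.00125). Asf1b, a histone chaperone, rose 1.32-fold, and Dctpp1, which clears unwanted deoxycytidine nucleotides, rose 1.33-fold. Pold2, a polymerase delta subunit, rose 1.28-fold, the clamp loader subunit Rfc5 rose 1.23-fold and Cdc7, the kinase that fires origins, rose 1.44-fold. The calls of Pold2, Rfc5 and Cdc7 were lost without WT replicate 1 (edgeR adjusted p = 0.0797, 0.0613 and 0.0755), and Rfc5 shares 10.7% of its exon bases with Wsb2. Samhd1, which breaks down deoxynucleotides and so acts against Rrm1 and Rrm2, was the factor that fell. It had 221 and 214 CPM in the libraries labelled KO, against 263 and 275 CPM in those labelled WT (log2 fold change -0.31, edgeR adjusted p = 0.00206).

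Of 28 further genes that control entry into S phase, 3 rose (10.7%, against 10.1% of all tested genes) and 2 fell (7.14%, against 11.0%), with a median log2 fold change of 0.039. The count of rises was 6 with the replicate number as a block, 7 with library totals alone and 5 without KO replicate 2. Rbl2, which encodes p130, a pocket protein that represses cell cycle genes in resting cells, had 63.2 and 60 CPM in the libraries labelled KO, against 109 and 96.8 CPM in those labelled WT. It fell 1.67-fold (log2 fold change -0.74 ± 0.080 SE, edgeR adjusted p = 3.24e-05), with no overlap, although 21% of its exon bases are shared with other annotated genes. Fbxw7, part of the ligase that marks cyclin E for destruction, fell 1.41-fold (edgeR adjusted p = 0.0382), a call lost without WT replicate 2 (0.397), with library totals alone (0.0742) and with DESeq2 (0.0581). Cdk6, a kinase partner of D-type cyclins, had 1039 and 995 CPM in the libraries labelled KO, against 785 and 805 CPM in those labelled WT (log2 fold change 0.36, edgeR adjusted p = 0.000379). Cdkn1a, which encodes the kinase inhibitor p21, rose 1.21-fold, and Ccnd1, cyclin D1, rose 1.25-fold. Their calls were lost without WT replicate 1 (Cdkn1a, edgeR adjusted p = 0.114) and WT replicate 2 (Ccnd1, 0.266), and 23.4% of Ccnd1 exon bases are shared with a gene on the opposite strand.

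Mitosis genes, which act after replication, had a median log2 fold change of 0.24, close to the 0.23 of the replication and G1/S genes. Of 24 tested, 9 rose (37.5%, against 10.1% of all tested genes) and 1 fell (4.17%, against 11.0%). Plk1, a mitotic kinase, rose 1.66-fold, with 54.8 and 51.7 CPM in the libraries labelled KO, against 29.6 and 34.6 CPM in those labelled WT. Cdc20 (1.43-fold), Ccnb1 (1.4-fold), Aurkb (1.4-fold), Top2a (1.27-fold) and Cdk1 (1.32-fold) rose as well, with edgeR adjusted p from 0.000241 to 0.00312. Plk1 shares 7.09%, Cdc20 2.84% and Top2a 1.35% of exon bases with other annotated genes. Cenpa, the histone variant of centromeres, fell 1.44-fold, with 121 and 122 CPM in the libraries labelled KO, against 180.1 and 171 CPM in those labelled WT (edgeR adjusted p = 5.50e-05). Whether the replication and mitosis lists differ in their change was not tested. The plot of cumulative shares sets these lists beside all tested genes.

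**Figure D5:**
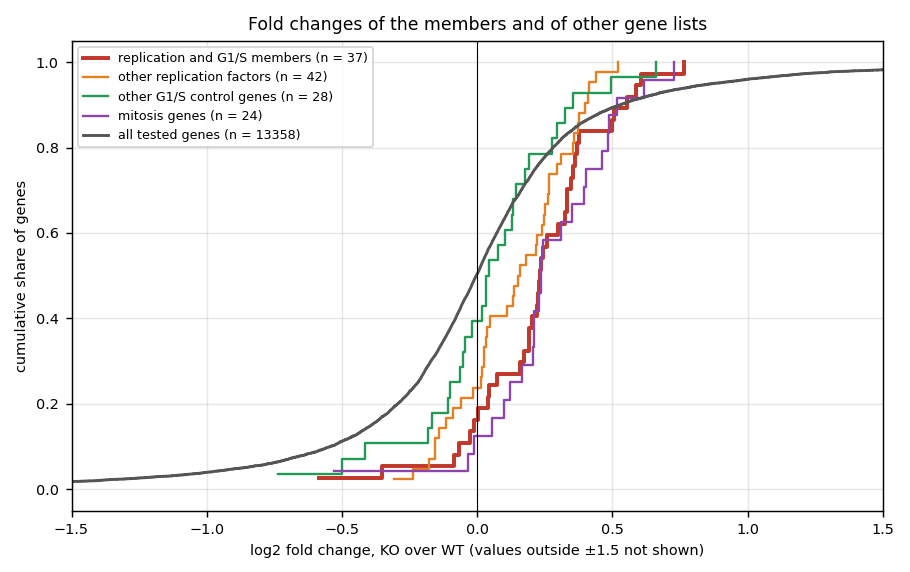
Cumulative share of genes by log2 fold change (KO over WT) for the 37 replication and G1/S genes, 42 other replication factors, 28 other G1/S control genes, 24 mitosis genes and all 13358 tested genes, drawn between -1.5 and 1.5. The curves of the 37 genes and of the mitosis genes run to the right of the curve of all genes over most of the range, and the curve of the other G1/S control genes stays close to it.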

How the data were processed

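Gene counts of 2 libraries labelled KO and 2 labelled WT were used. Whole-number read counts were deposited for each gene, and the FPKM values are the authors' own, per the file headers. The submitters' processing notes list featureCounts, Bowtie2 and Trim Galore 0.4.4, edgeR and DESeq2, and the build mm10, without roles or order. For strandedness and counting settings the sources used here give nothing. For all 37 genes the length implied by the authors' FPKM equalled the GENCODE M21 exon length within 0.1%. Positions are from M21, promoter windows from RefSeq (GRCm38.p6).

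The test was edgeR 4.0.16 under R 4.3.3 (TMM; filterByExpr at minimums of 10 per library and 15 in total; glmQLFit, robust, then glmQLFTest; Benjamini-Hochberg over 13358 genes; 724 were filtered out). SE of a log2 fold change is its size over the square root of F, with 95% confidence intervals from the moderated degrees of freedom. FPKM were used only to set levels of genes side by side. The step was tested on simulated counts. No pair of replicates agreed within counting noise (chi-square per degree of freedom 10.0 between the KO and 7.74 between the WT libraries), so none was merged as a library deposited a second time. That does not show whether they are separate animals. Alternatives were RLE, upper quartile and library-total scaling, other filters, a replicate block, each library left out, DESeq2 1.42.0, limma-voom (limma 3.58.1), an adjusted p of 0.1, glmTreat at 1.5-fold and leaving out mitochondrial genes. The crossed block was added after seeing the data. With 2 libraries a group, precision is limited by the spread between samples as well as by depth.

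The members, lists and tests were chosen with earlier results of these data known. Counts or CPM per library are given for every called member and, in each role, for the uncalled member with the highest p. From each further list up to 6 called genes per direction were named by p. The histone symbols sought at first (Hist1h to Hist4h) matched 0 listed genes, so current symbols were used.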

Additional observations from a re-analysis of the deposited data

How the results depend on the processing

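Among the 37 genes, RLE scaling and leaving out mitochondrial genes changed no call and no direction. Library totals alone, which moved the median of all genes to 0.082 (log2), moved that of the 37 to 0.32 and added 5 rises (Orc6, Rfc3, Tyms, Chaf1a and Chaf1b). That scaling gave 2105 higher genes in all (1013 lower), 7 other G1/S control genes higher in place of 3 and 16 mitosis genes higher in place of 9. Against 1.5-fold (glmTreat) 148 genes were higher and 211 lower in all, with 0 of the 37 higher, 0 lower and 0 in each further list higher. Leaving out 1 library gave 714 to 1605 higher and 831 to 1787 lower genes (main 1354 and 1472), 10 to 17 rises and 2 to 3 falls among the 37, 3 to 14 other replication factors higher (main 11), 2 to 5 other G1/S control genes higher and 7 to 12 mitosis genes higher. An adjusted p of 0.1 gave 6 other G1/S control genes higher. Smad4 ran from -0.063 to 0.40 (log2) with a library left out.

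Same-numbered libraries are not stated to be paired, and their deviations correlated at -0.031 over all tested genes and -0.12 over those with a mean log2 CPM above 3. The replicate block gave 17 rises and 2 falls among the 37 and 6 other G1/S control genes higher, and with crossed pairing 21 rises and 2 falls (1673 higher and 1770 lower of all genes). Gins2 turned to -0.00084 under the block and to -0.0014 with limma-voom. Library totals alone turned Prim1 (0.017), Fen1 (0.074) and E2f2 (0.060) upward, none of them called. With a library left out the sign of several uncalled genes changed, with log2 fold changes from -0.16 to 0.28 for Orc1, -0.12 to 0.11 for Gins2, -0.33 to 0.15 for Prim1, -0.069 to 0.16 for Pole, -0.079 to 0.059 for Fen1, -0.11 to 0.054 for E2f2 and -0.063 to 0.16 for Slbp. In all these cases the cause was not tested. On the strand of the gene alone the shares of promoters with a motif fell to 12.5% (E2F-type) and 37.5% (CCAAT), against 1.74% and 25.3% of tested genes. For TTTAAA alone the share was 12.5%, against 11.4% of tested genes and 14.9% of all genes with a window.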
